A study of Oryza sativa with 6 samples.

Results

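The transcriptome of wild-type rice grain in mid filling was described from the 3 libraries of the near-isogenic line NIL-GAF1, out of 6 libraries in the series. The line is labelled wild type, and its seeds were taken 15 days after flowering (DAF) from paddy-grown plants of Oryza sativa. A near-isogenic line carries a chosen segment in a recipient background, and the labels give neither the recipient cultivar nor the segment. The libraries were chosen by their genotype label alone, and the 3 libraries of the mutant line NIL-gaf1 were not used. No condition was compared. With 3 libraries of 1 group, the features are described by their level, their rank and their spread, and no p-value is given. The labels call the libraries replicates without saying whether they came from separate plants, so the spread may be partly technical.

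A filling rice grain is mostly starchy endosperm, the tissue that stores starch and protein for the seedling. Its storage proteins are the glutelins, which are stored in protein vacuoles, the prolamins, which form bodies inside the endoplasmic reticulum, and the globulins. Around the starchy endosperm lies the aleurone, beside it the embryo, and outside both the maternal pericarp and the remains of the nucellus, through which sucrose reaches the filling tissues. Starch is built from sucrose by way of ADP-glucose, and the chains are lengthened by starch synthases, branched by branching enzymes and trimmed by debranching enzymes.

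The table held 91080 features, of which 3813 carried a description and 1865 a gene symbol. The 3 libraries held 17236796, 19704794 and 22454000 counts. Levels are given as deposited FPKM (fragments scaled to feature length and library total), and shares of counts show where the sequencing depth went. FPKM is meant to make genes of different length comparable, but it depends on the length that was used. The length implied for the 14-3-3 protein GF14B, 5514 bases, exceeds its span on chromosome 4 (23104041 to 23107581). Orders of paralogs by FPKM are uncertain where such lengths are wrong. A count of 0 allows up to 3 counts in a library, which is 0.134 to 0.174 CPM here (counts scaled to a common library total) and covers counting error only. Every pair of libraries differed by more than counting noise, so none was treated as a copy of another. Library 2 stood apart, with a chi-square per feature of 29.5 against library 1 and 31.2 against library 3, where libraries 1 and 3 gave 10.9. The spread quoted as ± is the SD over the 3 libraries throughout.

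The markers of the labelled tissue were present, although 69.9% of all described features were at or above 1 FPKM. All 12 features matched to starchy endosperm markers had a mean above 1 FPKM, and their summed level was 179741, 204227 and 190915 FPKM in libraries 1, 2 and 3. All 9 aleurone and embryo markers were above 1 FPKM as well, and they summed to 2581, 1921 and 2791 FPKM. Among them were the oleosins OLE16 and OLE18, which coat oil bodies, and VP1, a B3 regulator of seed maturation that reached 12.7 ± 1.69 FPKM. The 6 markers of green tissue summed to 454, 314 and 322 FPKM. The nucellar regulator MADS29 stood at 11.5 ± 0.747 FPKM, and SWEET15, a sugar exporter of the nucellus and maternal vascular side, at 32.6 ± 3.22 FPKM.

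Of the markers of organs outside the grain, the 3 anther genes were at or near 0 and the 4 of root and floral organs were above 1 FPKM. A level above 1 FPKM therefore does not by itself tell the tissue. TDR, a regulator of the anther tapetum, and C6, an anther lipid transfer protein, had 0 counts in all 3 libraries, and RTS, another anther gene, had 2, 0 and 0 counts. The root silicon channel NIP2-1 was at 3.96, 1.55 and 5.06 FPKM. The floral organ regulators MADS2 and MADS16 were clearly counted, at 17.7 ± 2.84 and 17.3 ± 2.39 FPKM, which is above VP1 and MADS29. MADS4 stood at 2.28 ± 0.571 FPKM. Their part in the results was not tested. In whole seeds, fewer cells of a type and less RNA per cell cannot be told apart.

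The transcriptome was concentrated in few features. The single highest feature, GLUA1, held 7.28 ± 0.176% of the counts, the 10 highest by mean FPKM held 35.2 ± 1.57%, the 50 highest held 56.2 ± 2.79% and the 100 highest held 60.8 ± 2.45%. The 1000 highest held 75.5 ± 1.60%. Counted within each library, the first 30 features of library 1, 18 of library 2 and 22 of library 3 were enough to reach 50% of its counts. To reach 90% took 4435, 3867 and 4085 features. Library 2 was the most concentrated at both points and library 1 the least. Without library 2 the 10 highest held 34.7% and the 50 highest 54.9%.

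**Figure D1:**
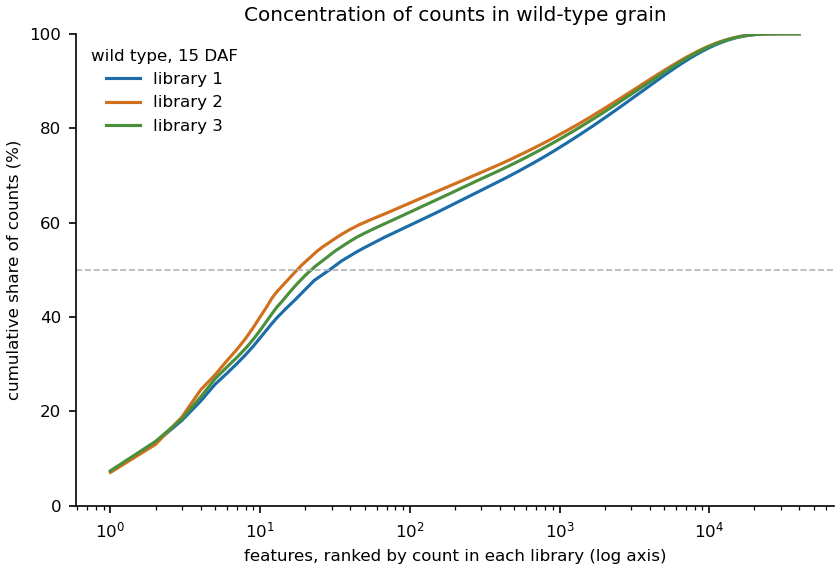
Cumulative share of counts in percent (linear axis) against the number of features, ranked by count within each library (log axis), for wild-type libraries 1, 2 and 3; the dashed line marks 50%. The curves cross 50% at 30, 18 and 22 features and lie close together, with library 2 above the other two from the third feature on.

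Below this head lay a long tail. A mean of at least 1000 FPKM was reached by 52 features, at least 100 FPKM by 438, at least 10 FPKM by 5022 and at least 1 FPKM by 17518. Of the described features 69.9% were at or above 1 FPKM, against 43.8% of all features with an OS identifier and 1.77% of those with an EPlOSAG identifier, a set of 53250 short entries with a median span of 92 bases that together held 0.0506% of the counts. The described features, though few, took 52.0%, 56.5% and 53.3% of the counts of libraries 1, 2 and 3.

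Storage protein genes filled most of the head. Of the 30 highest features 18 were described, and 17 of these were in the storage families, the exception being the germin-like GER3. The 22 storage features (glutelins, prolamins, globulins and the seed allergen and inhibitor family) held 37.4%, 43.7% and 39.9% of the counts of libraries 1, 2 and 3. All other families described below are small beside them: the 17 starch features held 1.45 ± 0.136% of the counts and the 35 sugar features 0.361 ± 0.0575%. Features with no description held 46.1 ± 2.32%, and 12 of the 30 highest features were among them. These 12 took 11.8% of the counts, so a large part of the head of this grain transcriptome carries no name in the table.

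GLUA1, a type-A glutelin on chromosome 1 (32076744 to 32078652 as the table gives it), was first in every library, at 44666, 43410 and 45557 FPKM. The second feature, OS07G0206500, has no description in the table. It was at 38003, 37944 and 40449 FPKM and lies on chromosome 7 at 5741877 to 5742488, 4394 bases from PROLM25. GLUA2 on chromosome 10 (13497363 to 13499401) followed at 34618, 33700 and 35315 FPKM. The first 2 were above all other features in every library. GLUA2 was the third in libraries 1 and 3 but lay below GLUB1-B (OS02G0249900) and GLUB5 in library 2. The order below was loose: of the 29 steps between neighbours in the 30 highest, 26 had ranges over the libraries that overlapped. OS02G0453600, an undescribed feature on chromosome 2 (14991687 to 14993674), was eighth at 20208, 18150 and 21972 FPKM. Of the 10 highest features of each library, 8 were shared by all 3, and of the 50 highest, 46.

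**Figure D2:**
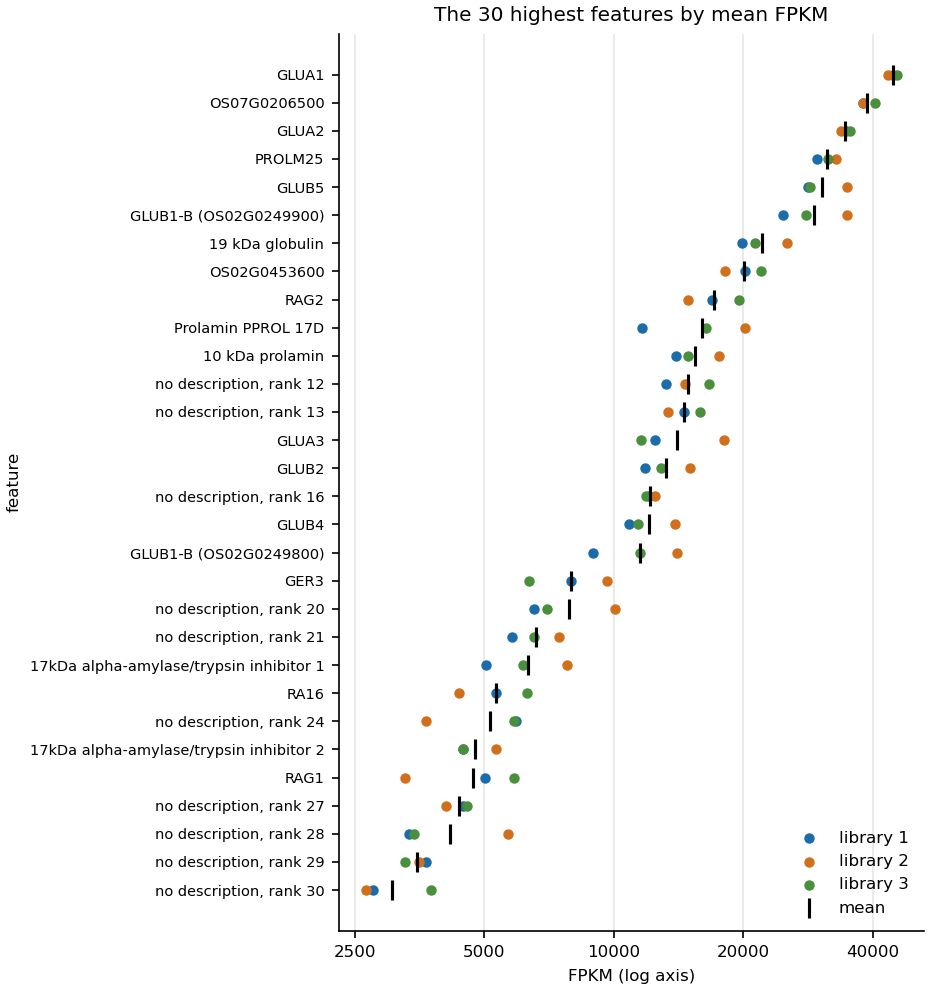
FPKM (log axis) of the 30 features with the highest mean, with 1 point for each wild-type library and a bar at the mean; features without a description are shown by identifier (OS07G0206500 and OS02G0453600) or by rank. GLUA1 is highest in all 3 libraries, and the points of most neighbouring rows overlap.

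The 8 described glutelins together reached 189548 ± 16159 FPKM and 31.6 ± 2.66% of the counts, and none was silent. Glutelins are made as precursors and cut into an acidic and a basic chain in the vacuole. The 3 type-A members summed to 91738, 95119 and 92446 FPKM and the 5 type-B members to 84567, 112434 and 92339 FPKM. The type-A sum was therefore nearly level, while the type-B sum was highest in library 2. Type B made up 48.0% of the glutelin sum in library 1 and 54.2% in library 2. No glutelin dominated: GLUA1, the leader, held 23.6 ± 2.38% of the sum.

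Among type-B members, GLUB5 (28277, 34744 and 28610 FPKM) and one of the features named GLUB1-B, OS02G0249900 (24664, 34795 and 27958 FPKM), did not differ beyond their spread. The other feature named GLUB1-B, OS02G0249800, was lower, at 8950, 14015 and 11512 FPKM. The pair share a symbol, a description and an implied length of 1650 bases, so reads common to both may have been split by the counting and their ratio is uncertain. GLUB2 at 13237 ± 1625 FPKM, GLUB4 at 12035 ± 1609 FPKM and the type-A member GLUA3 at 14012 ± 3489 FPKM overlapped with each other. All 5 type-B members and GLUA3 were highest in library 2, while GLUA1 and GLUA2 were lowest there. Of all features with a mean of at least 10 FPKM, library 2 was highest for 25.0% and lowest for 51.0%.

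Described prolamins were led by PROLM25, a 13 kDa prolamin, at 29696, 32872 and 31452 FPKM, which was 49.5 ± 3.46% of the sum of the 7 described members. The undescribed OS07G0206500, 4394 bases from PROLM25, was higher in every library. It was placed in no family, so the lead holds among described members only. Prolamin PPROL 17D (11598, 20156 and 16337 FPKM) and the 10 kDa prolamin (13929, 17505 and 14861 FPKM) followed and overlapped with each other. PROLM20 was far lower at 827 ± 25.0 FPKM. The symbol PROLM7 stands for 3 features with very different values: 1 had 31.5 ± 9.66 FPKM, another 2 counts in all, and the last, OS05G0329100, 0 counts. How reads common to these features would have been counted is not known, so the silent one is uncertain. All 5 prolamins with a mean of at least 10 FPKM were lowest in library 1, as were 10.5% of all features at that level.

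The 19 kDa globulin was at 19892, 25194 and 21279 FPKM, and Cupincin, a protein of the cupin fold that is also found in vicilin-like storage globulins, at 2359, 1443 and 2758 FPKM. The globulin was highest in library 2, where Cupincin was lowest. The seed allergens and alpha-amylase/trypsin inhibitors, small sulfur-rich proteins that can act on digestive enzymes, were led by RAG2 (16878, 14870 and 19561 FPKM) with 44.7 ± 2.52% of the sum of 5 members. The 17kDa alpha-amylase/trypsin inhibitor 1 (6328 ± 1382 FPKM), RA16 (5318 ± 949 FPKM), the 17kDa alpha-amylase/trypsin inhibitor 2 (4743 ± 499 FPKM) and RAG1 (4712 ± 1327 FPKM) overlapped with each other, and none of the family was silent. RAG1, RA16 and RAG2 were lowest in library 2, as were 51.0% of all features with a mean of at least 10 FPKM. Both 17kDa inhibitors were highest there, as were 25.0% of those features.

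Some of the highest features lay close together in the genome, but how often other features do so was not computed. When the 100 highest features were joined wherever the gap to the next was at most 100 kb, 29 of them fell into 7 neighbourhoods, which held 26.8% of the counts. The largest by counts, 65.7 kb on chromosome 2 (8401328 to 8467035), held GLUB2, both GLUB1-B features and 2 undescribed features, and took 9.61 ± 1.501% of the counts. GLUB5 and GLUB4 lay within 7.51 kb on the same chromosome (9580486 to 9587998) and took 7.05 ± 0.868%. Chromosome 2 as a whole held 25.8 ± 1.82% of the counts but 12.1% of the features at or above 1 FPKM.

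On chromosome 7 the features of the inhibitor family, with 3 undescribed features, lay within 194 kb (6239015 to 6433104) and took 4.67 ± 0.340% of the counts. PROLM25 and OS07G0206500 lay within 5.61 kb before it, at 5736877 to 5742488, and took 4.28 ± 0.133%. PROLM20 and 2 undescribed features lay in a further group of 9.80 kb beyond it (6611130 to 6620931). High and silent features stood side by side there: from 600 kb before the start of RAG2 to 450 kb after it, 12 of 87 features with an OS identifier were at or above 1000 FPKM, 38 were below 1 FPKM and 24 had 0 counts. The share below 1 FPKM was 43.7%, against 56.2% of all features with an OS identifier. Of all features with an OS identifier, 25.6% had 0 counts, so silent features are not particular to this stretch. The window takes in the groups of PROLM25 and PROLM20, so its number of high features follows in part from its limits. A neighbourhood of 7 undescribed features on chromosome 5 (15330498 to 15530854) took 0.531 ± 0.109% of the counts.

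**Figure D3:**
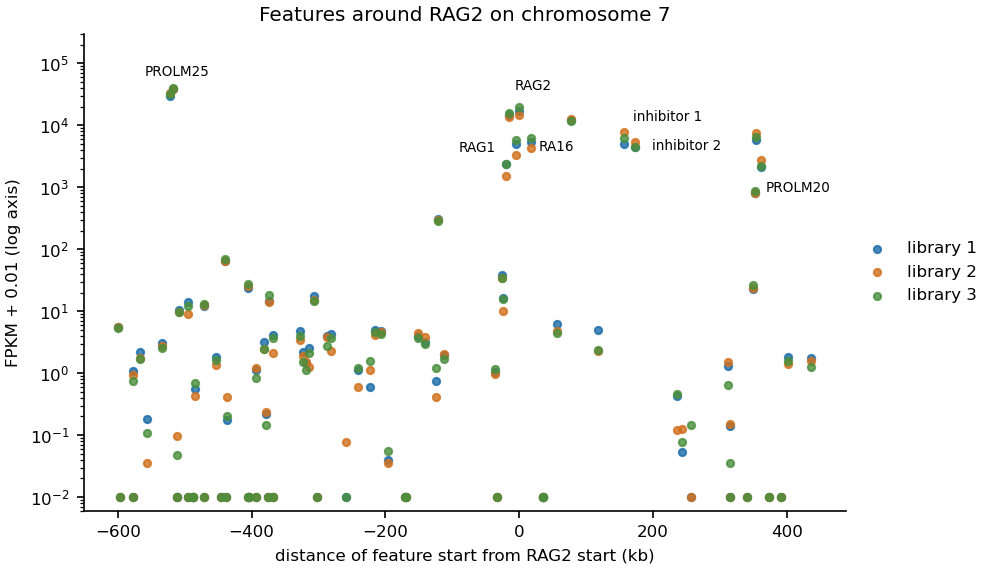
FPKM + 0.01 (log axis) of features with an OS identifier against the distance of their start from that of RAG2 on chromosome 7 (kb), with 1 point for each wild-type library; inhibitor 1 and 2 are the 17kDa alpha-amylase/trypsin inhibitors and points at the bottom are features with 0 counts. The 12 features at or above 1000 FPKM stand among 24 with no counts. Of all features with an OS identifier, 25.6% had no counts.

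In the starch pathway 1 described member stood far above its paralogs at several steps. WAXY, a granule-bound synthase required for amylose, was at 1705, 1340 and 1609 FPKM and held 99.5 ± 0.0648% of its pair; the other described granule-bound synthase was at 8.36 ± 0.857 FPKM. SBE1, a branching enzyme, was at 1059, 906 and 952 FPKM, while branching enzyme 3 was at 0.652, 0.431 and 0.598 FPKM. Each leader exceeded its described paralog in every library with no overlap. BEIIb, another branching enzyme, could not be matched by name, nor could SSIIIa and AGPL2, so their place beside these members is not known. AGPS, the small subunit of the pyrophosphorylase that supplies ADP-glucose, was at 1158, 950 and 975 FPKM and is the only described member of its family. Isoamylase 1, a debranching enzyme, was likewise alone, at 225 ± 34.6 FPKM.

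The soluble starch synthases had no clear leader. SSII-3 was at 124, 99.7 and 115 FPKM and soluble starch synthase 1 at 115, 75.7 and 135 FPKM, so their ranges overlapped and the order was reversed in library 3. Alpha-glucan phosphorylase 1, which can add to or shorten glucan chains, was at 226, 169 and 204 FPKM and held 91.9 ± 1.35% of its pair. Alpha-amylases, which degrade starch, were low: AMY1.4 at 24.9 ± 2.68 FPKM and AMY2A at 22.5 ± 4.07 FPKM overlapped, and 3 of the 6 members were below 1 FPKM. Among all described features, 69.9% were at or above that level. AMY1.2 was counted in library 3 alone, at 4.09 FPKM.

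Sucrose synthases, which split incoming sucrose into UDP-glucose and fructose, were far above invertases, which hydrolyse it. SUS4 was at 491, 360 and 462 FPKM and held 71.5 ± 1.65% of the family, SUS2 followed at 139, 105 and 138 FPKM with no overlap, and SUS3 (24.9 ± 8.75 FPKM) overlapped with SUS1 (21.1 ± 4.39 FPKM). SUS6 had 0 counts. The 5 sucrose synthases summed to 611 ± 83.4 FPKM and the 9 invertases to 31.4 ± 4.35 FPKM. The invertase leader, cytosolic CINV1, was at 7.94, 7.11 and 7.73 FPKM and overlapped in range with the cell wall invertase CIN2 at 7.17, 5.16 and 5.78 FPKM. The cell wall invertases CIN3 and CIN6 had 0 counts.

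SWEET11, a plasma membrane sugar exporter, was at 890, 575 and 805 FPKM and held 82.3 ± 2.64% of the sum of 14 SWEET transporters. SWEET4 came next at 48.3 ± 7.46 FPKM and SWEET6A at 38.3 ± 7.33 FPKM, and their ranges overlapped. SWEET2B, SWEET5 and SWEET12 had 0 counts. Of the sucrose importers, SUT1 was at 20.9, 14.1 and 18.5 FPKM and SUT5 at 0.187 FPKM on average. The hexokinases, which phosphorylate glucose, were low throughout, led by HXK6 at 6.84 ± 0.334 FPKM.

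In the secretory pathway PDIL1-1, a protein disulfide isomerase that pairs cysteines in storage proteins as they fold, was at 359, 402 and 306 FPKM and held 72.9 ± 0.682% of 10 members. PDIL1-4 followed at 53.1 ± 8.89 FPKM. Among the cystatins, inhibitors of cysteine proteases, cysteine proteinase inhibitor 1 stood at 308 ± 18.8 FPKM and inhibitor 5 at 127 ± 40.9 FPKM. Of 11 features described as such inhibitors, putative ones included, numbers 9 and 11 had 0 counts. Among cysteine proteases RD19D led at 91.8 ± 26.01 FPKM, Oryzain beta chain followed at 30.8 ± 2.36 FPKM, and the senescence protease SAG39 had 0 counts.

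Genes of oil bodies and late embryogenesis were well above the median described feature, which stood at 3.44 FPKM. OLE18 was at 589, 453 and 467 FPKM and OLE16 at 533, 379 and 434 FPKM. OLE18 was the higher in each library, but the ranges overlapped. Of 7 late embryogenesis and dehydrin proteins, which protect drying cells, RAB21 led at 877, 584 and 1186 FPKM, above EMP1 at 277 ± 43.4 FPKM and LEA3 at 229 ± 40.3 FPKM. The dehydrins beside it on chromosome 11 were lower: RAB16B at 62.3 ± 13.6 FPKM, RAB16C at 8.58 ± 2.79 FPKM and RAB16D at 6.83 ± 2.63 FPKM. All 5 members with a mean of at least 10 FPKM were highest in library 3 and lowest in library 2. Of all features at that level, 21.4% were highest in library 3 and 51.0% were lowest in library 2.

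Lipid transfer proteins, which carry lipids outside the cell, had a pair of leaders. LTP was at 725, 519 and 873 FPKM and LTP-2 at 689, 607 and 731 FPKM, and neither was first in all libraries. The next, LTP110-B, reached 29.8 FPKM, and 2 of the 9 members had 0 counts, among them C6. Among all described features, 6.71% had 0 counts.

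Transport genes showed a similar drop from leader to rest in metallothioneins, small metal-binding proteins. MT3A was at 2467, 2116 and 2177 FPKM and held 57.5 ± 4.25% of the family, MT21A followed at 771, 583 and 1014 FPKM, and MT4B and MT4C were below 1 FPKM. Among 26 aquaporins the tonoplast channel TIP3-1 (993, 683 and 771 FPKM) and the plasma membrane channel PIP2-1 (849, 561 and 579 FPKM) overlapped in range, although TIP3-1 was higher in each library. PIP1-2 was next at 174 ± 38.6 FPKM, and NIP3-2, NIP4-1 and PIP2-3 had 0 counts.

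Nutrient uptake transporters were low. The zinc and iron transporters were led by ZIP2 at 11.98 ± 1.02 FPKM and NRAMP6 at 9.39 ± 0.612 FPKM, and IRT2, YSL10, YSL18 and YSL4 had 0 counts. Phosphate transporters were led by PHT1-8 at 5.85 ± 0.465 FPKM, and 10 of 12 were below 1 FPKM. Of 12 ammonium and nitrate transport genes 9 were below 1 FPKM, and the leader NAR2.2 overlapped with AMT3-2. Among all described features, 69.9% were at or above 1 FPKM and 6.71% had 0 counts.

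Regulators were present at levels far below the storage genes. By the words used, 266 described features were transcription factors or zinc finger proteins, of which 156 were at or above 1 FPKM and 38 had 0 counts. Their median was 1.97 FPKM, against 3.44 FPKM for all described features, of which 69.9% were at or above 1 FPKM and 6.71% had 0 counts. The highest were not classical DNA-binding factors: SAP8, SAP5 and SAP9, stress-associated proteins with A20 and AN1 zinc fingers, stood at 312 ± 43.3, 198 ± 21.7 and 187 ± 15.9 FPKM. The zinc finger CCCH protein 37 was at 173 ± 13.7 FPKM, and the mini zinc finger proteins MIF2 and MIF1 at 127 ± 13.3 and 110 ± 14.6 FPKM.

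The MADS-box family was led by MADS8 at 130, 133 and 106 FPKM, which held 25.8 ± 2.96% of the sum of 26 members. MADS1 followed at 101, 67.3 and 88.0 FPKM and MADS7 at 81.2, 79.4 and 63.9 FPKM, then MADS21 at 44.3 ± 2.48 FPKM. MADS1, MADS7 and MADS8 are SEPALLATA-like factors known for specifying floral organs, and MADS21 belongs to the ovule and seed clade. MADS20 and MADS33 had 0 counts. Of the 12 MADS-box members with a mean of at least 10 FPKM, 11 were highest in library 1, as were 53.7% of all features at that level.

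NAC48 stood at 107, 101 and 105 FPKM, or 77.3 ± 2.41% of the 6 described NAC factors, and NAC74 followed at 16.6 ± 3.23 FPKM. NFYB1, a nuclear factor Y subunit of the endosperm, was at 102, 93.9 and 99.1 FPKM, while NFYB4 was at 2.50 ± 0.429 FPKM and the second feature described as subunit B-4 had 0 counts. NAC48 and NFYB1 varied little, with coefficients of variation of 2.98% and 4.28%. The remaining regulators of the 15 highest were a CCCH protein (56), SAP6 and SAP1, at 39.5 to 43.3 FPKM.

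Other regulator families were low. Of the B3, homeobox and ethylene-responsive factors, 11 of 40, 5 of 40 and 3 of 14 had 0 counts. No bZIP or MYB factor was silent. Among all described features, 6.71% had 0 counts and 69.9% were at or above 1 FPKM. The bZIP factors 60 (28.7, 31.6 and 32.1 FPKM) and 53 (30.5, 22.2 and 29.9 FPKM) were not separated. The B3 family was led by IDEF1, a regulator of the iron deficiency response, at 25.3 ± 3.47 FPKM, and 31 of its 40 members were below 1 FPKM. Homeobox factors had no leader, with HOS58 at 14.9 ± 2.06 FPKM beside HOX16 at 14.5 ± 1.30 FPKM, and HOX24, HOX26 and HOX28 were among 5 with 0 counts. EREBP1 (23.9 ± 1.98 FPKM) and DREB2C (19.6 ± 2.28 FPKM) led the ethylene-responsive factors, of which 11 of 14 were below 1 FPKM. MYBAS2 led the MYB factors at 11.4 ± 2.39 FPKM.

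Among the families grouped under hormones by words in the description, a protein phosphatase stood out. Some protein phosphatases 2C hold back abscisic acid signalling, but the descriptions do not say which of the 56 members do. Probable protein phosphatase 2C 27 was at 448, 403 and 428 FPKM and held 46.8 ± 0.912% of the sum of 56 described members, while the second, number 11, reached 41.0 ± 6.46 FPKM. GH3.8, which conjugates auxin to amino acids, was at 94.5, 64.3 and 82.4 FPKM, above GH3.4 at 21.5 ± 5.50 FPKM. ARF4 led the auxin response factors at 56.3 ± 9.63 FPKM, IAA1 the Aux/IAA repressors at 28.0 ± 7.60 FPKM and PIN4 the auxin efflux carriers at 8.92 ± 2.54 FPKM. The clock regulators PRR95 (28.5 ± 2.69 FPKM) and PRR1 (13.3 ± 1.06 FPKM) led the two-component response regulators. The SAPK kinases, some of which act downstream of abscisic acid, were even, from SAPK7 at 8.39 ± 0.152 FPKM downward.

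Genes of growth and the wall were moderate. Of 45 expansins, which loosen walls, 17 had 0 counts and 31 were below 1 FPKM. For comparison with the families here, 6.71% of all described features had 0 counts and 69.9% were at or above 1 FPKM. EXLA2 led at 49.2, 54.5 and 32.6 FPKM and EXLA1 followed at 25.8, 16.6 and 17.9 FPKM. The 9 cellulose synthases were all above 1 FPKM and had no leader, with CESA8 (23.8, 25.2 and 27.1 FPKM) and CESA1 (25.3, 22.6 and 22.5 FPKM) overlapping. TUBA, an alpha-tubulin, was at 251 ± 25.5 FPKM and held 48.2 ± 1.91% of 15 tubulins. A histone H3 was at 143, 146 and 136 FPKM. Of 28 cyclins 18 were below 1 FPKM and 5 had 0 counts, and the leaders Cyclin-C1-1 (31.2 ± 2.76 FPKM) and CYCT1-1 belong to groups known for transcription rather than for division.

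Among stress and redox families the germin-like proteins showed the steepest dominance. GER3, described as germin-like protein 8-2, was at 7925, 9615 and 6346 FPKM and held 96.8 ± 2.36% of the sum of 37 members. Germin-like protein 3-8 was a distant second at 192, 83.7 and 325 FPKM, 29 members were below 1 FPKM and 13 had 0 counts, among them GER5 and GER8. Among all described features, 6.71% had 0 counts and 69.9% were at or above 1 FPKM. 1-Cys peroxiredoxin A, a seed peroxiredoxin, was at 487, 291 and 457 FPKM and held 80.5 ± 4.48% of 8 members. TRXH held 55.2 ± 1.04% of 24 thioredoxins, at 321 ± 6.67 FPKM, and SODA 69.7 ± 0.960% of 6 superoxide dismutases, at 310 ± 38.1 FPKM. GRXC6 led the glutaredoxins at 162 ± 21.04 FPKM, APX2 the ascorbate peroxidases at 97.2 ± 12.5 FPKM, GSTF2 the glutathione transferases at 60.5 ± 3.61 FPKM and CATB the catalases at 62.5 ± 11.3 FPKM.

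Small heat shock proteins, chaperones that bind unfolded proteins, were expressed by many members at once. HSP17.9A was at 287, 293 and 298 FPKM, yet held only 16.7 ± 1.75% of the sum of 21 members, and HSP18.0 overlapped with it at 263, 295 and 250 FPKM. Of the 12 with a mean of at least 10 FPKM, 9 were highest in library 2, as were 25.0% of all features at that level. HSP16.6 had 0 counts. The heat stress transcription factors were likewise spread, led by HSFA2C at 37.6 ± 4.63 FPKM, and chitinases, which break down fungal walls, by CHT8 at 47.0, 24.8 and 28.3 FPKM, although CHT1 was above it in library 3.

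Ribosomal proteins were also even. RPS4 led 29 ribosomal proteins with 11.2 ± 1.75% of the sum, at 225, 310 and 211 FPKM. Cytosolic GAPC3, an enzyme of glycolysis, was at 1408, 1099 and 1295 FPKM and held 76.6 ± 4.04% of its family of 3. The elongation factor REFA2 stands for 4 features on chromosome 3 between 58.9 and 110 FPKM, whose order is uncertain for the reason given for GLUB1-B. CAB2R, a chlorophyll-binding protein, was at 171, 112 and 119 FPKM. All 4 chlorophyll-binding proteins were highest in library 1, as were 53.7% of all features with a mean of at least 10 FPKM. The RuBisCO small subunit RBCS-A was at 32.4 ± 2.80 FPKM and RBCS at 5.74 ± 1.52 FPKM. PSBK on chromosome 11 (22518901 to 22519086) and PSBL on chromosome 3 (26268250 to 26268366), both short entries, were among 4 silent photosystem features. All features lay on chromosomes 1 to 12, so genes of the plastid genome were not covered.

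Across the 68 families with at least 2 described members, the leader held more than 50% of the family sum in 30 and more than 90% in 7. The median share was 47.9%. The same member led in all 3 libraries in 57 families, but in 52 only were the leader and the second separated in range, and the 16 others overlapped. In 11 of these the leading member changed between libraries, and in 5 (invertases, oleosins, aquaporins, cellulose synthase-like proteins, and ammonium and nitrate transporters) the same member was higher in each library. A wider set of 285 families was formed from the descriptions by removing the member number. It holds many of the same families and features, so its likeness to the first set is partly built in. Of 277 with a leader at or above 1 FPKM, the leader held more than 50% in 156 and was the same in all libraries in 243. The leading share fell with family size, from a median of 64.7% in 135 families of 3 or 4 members to 32.9% in 54 families of 10 or more. Part of this fall follows from size alone, because more members divide the sum.

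**Figure D4:**
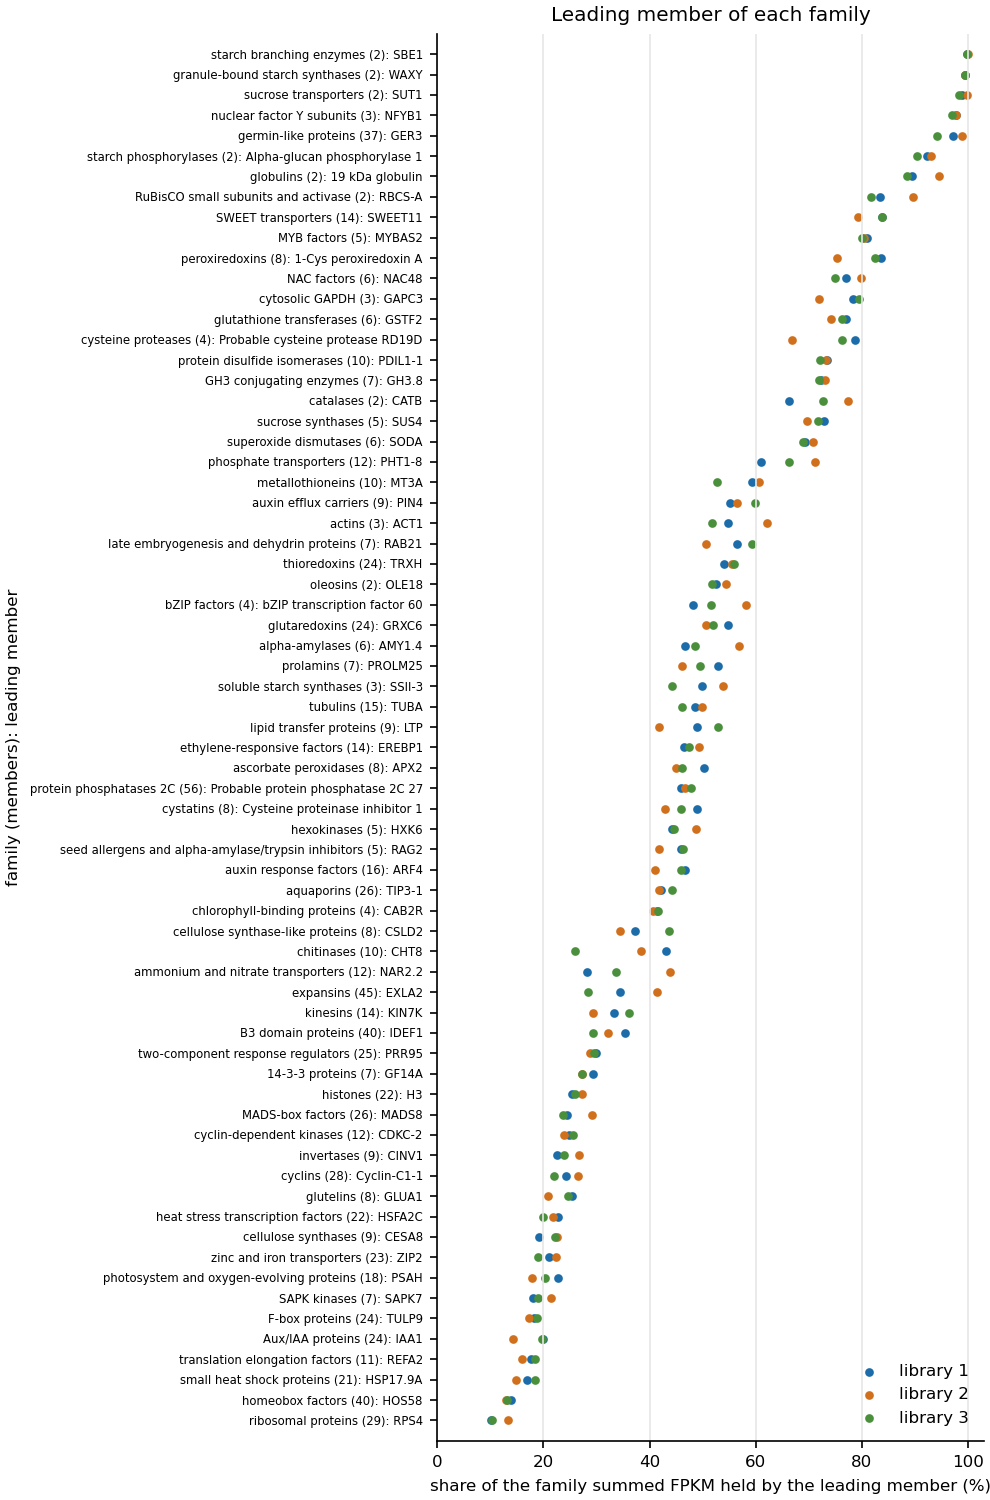
Share of the summed FPKM of each family held by its leading member (percent, linear axis from 0) in wild-type libraries 1, 2 and 3, with the number of described members in brackets. Of the sum of described members, SBE1, WAXY, SUT1, NFYB1, GER3, alpha-glucan phosphorylase 1 and the 19 kDa globulin hold over 90% on average. Ribosomal proteins and homeobox factors have the lowest leading shares.

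Of the 91080 features, 57927 had 0 counts in all 3 libraries. They made up 90.6% of the EPlOSAG identifiers, 27.7% of the undescribed and 6.71% of the described OS identifiers. A further 4069 features were counted in 1 library only. The 256 described features without counts included 17 expansins, 13 germin-like proteins, 11 B3 domain proteins, 9 laccases, which polymerise lignin precursors, and 6 endoglucanases. Several share a symbol with another silent feature, as those named EL5.3, PAC1A and LAC12 do. How reads common to such copies would have been counted is not known, so their silence is uncertain. Among the laccases LAC7 led at 4.76 FPKM, and among the endoglucanases GLU1 led at 65.5 FPKM with 68.9% of the sum of 21 members. Among the 99 silent members of the 74 families, a copy of PROLM7 was the only storage or starch gene. AMY1.1, whose description lacks the isozyme wording by which the alpha-amylases were grouped, also had 0 counts.

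The libraries varied more than counting alone would give. For the 5022 features with a mean of at least 10 FPKM the median coefficient of variation was 12.1%, against 3.82% from counting error, and the middle 90% lay between 3.34% and 31.3%. Without library 2 the median was 7.98%, without library 1 it was 11.1% and without library 3 it was 11.4%. Each of these rests on 2 libraries, which by itself tends to lower the median, so they are not directly comparable with 12.1%. The median was 11.99% for features of 10 to 100 FPKM and 13.4% for the 52 above 1000 FPKM, so it did not fall with level. Library 1 was the highest of the 3 for 53.7% of these features and library 2 the lowest for 51.0%, while storage features took the smallest share of the counts in library 1 and the largest in library 2. FPKM is scaled to the library total, of which the storage share is a part, and the role of the storage share in these differences was not tested. After median-ratio scaling the median coefficient of variation was 10.7%.

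Among described features the most variable were CHT1, a chitinase, at 10.6, 7.05 and 38.1 FPKM (coefficient of variation 91.4%), germin-like protein 3-3 at 12.4, 3.51 and 22.9 FPKM, and SALT, a salt stress-induced protein, at 23.1, 29.3 and 78.0 FPKM. These 3 and germin-like protein 3-8 were highest in library 3, as was ICL, isocitrate lyase of the glyoxylate cycle, at 10.2, 5.32 and 18.1 FPKM. Both LTP110-B features, the 14-3-3 protein GF14B (9.81, 22.1 and 9.26 FPKM) and the glycosyltransferase GT6 were highest in library 2, and CHT5 in library 1. The smallest coefficients of variation were 0.304% to 0.738%. They belonged to long chain acyl-CoA synthetase 8 at 28.3, 28.2 and 28.3 FPKM, SPL, RABH1b, OS9 and the cytochrome c CC-1. These 5 were picked as the lowest of 1051 described features, and their values lie below the 3.82% median from counting error. Such closeness is therefore not shown to be a property of the genes. After scaling by the median ratio of the libraries the 5 had 4.86% to 6.10%. This was still below the median of 10.7% for all features at that level.

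**Figure D5:**
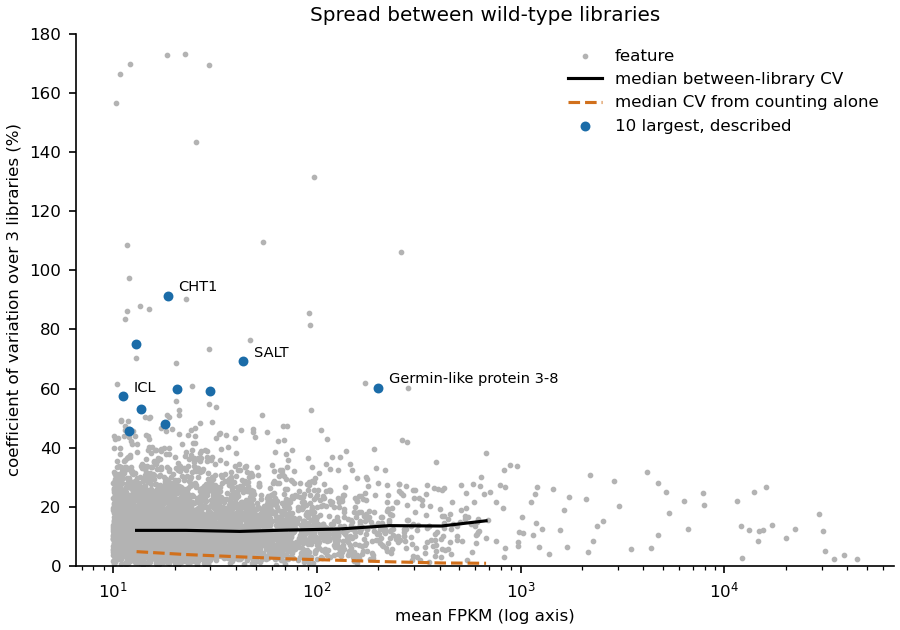
Coefficient of variation over the 3 wild-type libraries (percent) against mean FPKM (log axis) for the 5022 features with a mean of at least 10 FPKM; the solid line is the median in bins with at least 20 features, the dashed line the median expected from counting alone, and blue points are the 10 largest among described features. The between-library median stays near 12.1% while the counting error falls with level.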

How the data were processed

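RNA from developing seeds was sequenced with standard Illumina libraries, per the labels' protocols. The submitters' processing notes name Bowtie 0.12.2. Not given in the sources used here are the genome build, annotation and counting tool and any use of strand, so overlapping and antisense features, and near-identical copies, are uncertain. The authors deposited 1 table with read counts per feature, as whole numbers without normalization, and FPKM, per the file headers. Count and FPKM together imply a feature length, which was equal between libraries within 0.1% for 19259 features with at least 10 counts in each. Printed lengths are these. Some implied lengths exceed the span of their feature, as for GF14B, so ratios between features rest on lengths that were not checked.

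Groups came from the genotype label. Features were ranked by mean FPKM. Families were formed from words in the description, and a silent member is one with 0 counts in all 3 libraries. Members, lists and families were chosen with earlier results of these data known. Named genes were the 30 highest features (2 undescribed ones by identifier), leaders, seconds and up to 3 silent members of families, the markers, the 10 most and 5 least variable described features at 10 FPKM or more, and the 15 highest regulators; further members were named beside them. In the marker check, RPBF, RISBZ1, NAC20, NAC26, AGPL2, SSIIIa, BEIIb, REG2, OSH1 and others could not be matched by name, and no gene name was given to identifiers the table leaves undescribed. Spread is the coefficient of variation. No test was run: a paired permutation of 3 libraries could not give a two-sided p under 0.25. Computations used Python 3.11.15, numpy 2.4.6 and pandas 2.3.3, and were tested on simulated data.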

Additional observations from a re-analysis of the deposited data

How the results depend on the processing

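Ranking by mean CPM, which is not divided by length, kept 41 of the 50 highest features, and ranking by median FPKM kept 50. As a share of summed FPKM the 50 highest held 64.2% in place of 56.2%, and leaving out 1 library at a time gave 54.9% to 57.7%. The number of features that held 50% of the total ranged from 20 to 26 in the same way, and was 17.7 for summed FPKM. With a threshold of 5 FPKM, 8419 features passed in place of 17518, and with 0.5 FPKM, 21878. Features without counts numbered 58291 after thinning to the smallest library and 64338 with at most 3 counts summed. By mean CPM 52 of 68 families kept their leader: OLE16, PIP2-1, CESA1, VP1 and 12 others then led. Leaving out 1 library kept 66 to 67. The median leading share was 46.2% by counts and 47.4% to 47.8% without 1 library. The median coefficient of variation was 15.3% from 1 FPKM upward, 10.7% after median-ratio scaling, and 7.98% to 11.4% without 1 library, an alternative chosen after seeing the data; the lowest value was reached without library 2. The cause was not tested for any of these. Depth limits absence to under 3 counts per library. No paired analysis was possible because only 1 group was described, with no other group to pair its libraries with.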

Other observations

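Outside the families above, the highest described features (chosen after their values were seen) were GOS2, a translation initiation factor, at 2149 ± 100.5 FPKM, and SPK, a calcium-dependent protein kinase, at 1762, 1562 and 1721 FPKM. Both varied little between the libraries. Enzymes of carbon metabolism followed: a probable alpha-glucosidase (Os06g0675700) at 636 ± 192 FPKM, the triosephosphate isomerase TPI at 576 ± 26.3 FPKM, the pyruvate, phosphate dikinase PPDK1 at 530, 674 and 410 FPKM, and sorbitol dehydrogenase at 515 ± 42.6 FPKM. INO1, which makes the inositol backbone of phytate, stood at 439 ± 24.5 FPKM. The fermentation enzymes ADH1 and PDC2 stood at 379 ± 32.6 and 328 ± 68.1 FPKM.

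The xylanase inhibitor CHIB3H-H was at 453 ± 57.1 FPKM, RASI, an inhibitor of alpha-amylase and subtilisin, at 496, 292 and 466 FPKM, and RBBI3.3, a trypsin inhibitor of the bran, at 418, 283 and 484 FPKM. RASI and RBBI3.3 were lowest in library 2, where a lectin was highest, at 284, 479 and 358 FPKM. MFT1, a homolog of MOTHER of FT, a regulator of seed germination in Arabidopsis, was at 485 ± 42.4 FPKM.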
